A study of Mus musculus with 2 samples.

Results

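The hypoxia-responding glioma cells described here were 270 of 5370 cells kept, from 7493 deposited barcodes of mouse tumours. They were chosen by their summed level of 5 genes that low oxygen induces: Vegfa, Bnip3, Slc2a1, Fam162a and Ndrg1. A barcode was kept if it held at least 500 genes and 3000 unique molecular identifiers (UMIs, each standing for 1 captured RNA molecule) and at most 15% mitochondrial UMIs. The score of a cell was the UMIs of the 5 genes per 1000000 UMIs of that cell, a unit written CPM below, and the top 5% of cells in each library were the members, 138 in pool 1 and 132 in pool 2. They were set against the lower 50% of each library, 1375 and 1311 cells. The middle 1236 and 1178 cells entered the statistical fit and are described in places. Since the score chose the members, its 5 genes are described and were not tested.

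The study profiled single cells of gliomas that had been induced with PDGFB, a growth factor that activates the receptor Pdgfra and drives precursors of oligodendrocytes to divide. There was 1 group: C57BL/6 mice that had received PDGFB in the telencephalon in utero, with tumours taken about 40 days after birth, and oxygen was not varied. Per the labels, cells carrying GFP were sorted by flow cytometry before capture. Each of the 2 libraries mixed the cells of 2 tumours, and n is 2 pools throughout. Both groups of cells come from the same 2 droplet libraries, so tests measured how far a difference varied between the 2 pools and do not extend to other tumours.

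Cells sense oxygen through the transcription factor HIF. Its alpha subunits, Hif1a and Epas1, are hydroxylated by the prolyl hydroxylases Egln1, Egln2 and Egln3 when oxygen is present, bound by Vhl and destroyed. When oxygen is low, the alpha subunit stays, pairs with Arnt and raises genes for glucose uptake, glycolysis, blood vessel growth and mitochondrial restraint. Because this control acts on the protein, the mRNA of Hif1a need not change when the targets do. In gliomas such genes are known from tumour regions far from blood vessels, but a droplet library keeps no positions.

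Pool 1 held 3843 barcodes with 33894255 UMIs and pool 2 held 3650 barcodes with 40909383 UMIs. Kept cells had medians of 9914 and 13118 UMIs. Median depth was 8854.5 UMIs for members and 8435 for the lower 50% of pool 1, and 14404.5 for members and 12249 for the lower 50% of pool 2. Mitochondrial shares had medians of 2.97% and 1.32% in members, against 3.02% and 1.36% in the lower 50%. The pools shared 4 barcodes, of which 2 were kept and 0 were members. Doublets were not effectively removed: the caller marked 1 and 2 barcodes, against 2.80% and 2.62% expected. All sex-linked UMIs of pool 1 were of Xist and all of pool 2 were Y-linked, in members and lower 50% alike. The 2 tumours within a pool therefore could not be told apart by sex, and the pools differ in sex as well as in everything else about them.

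The member threshold lay at a score of 513 CPM in pool 1 and 486 in pool 2. The lowest members were at 518, 517 and 513 in pool 1 and 494, 488 and 486 in pool 2, and the highest cells left outside were at 512, 510 and 510 in pool 1 and 484, 484 and 483 in pool 2, so the threshold separates no gap. A member carried a median of 7 score UMIs in pool 1 (range 2 to 62) and 15 in pool 2 (range 2 to 110). In pool 1, 42 members had under 5 score UMIs, and in pool 2, 18 did. All 5 genes were seen together in 0 members of pool 1 and 5 of pool 2. In the lower 50%, 911 cells (66.3%) of pool 1 and 660 (50.3%) of pool 2 carried no score UMI.

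Vegfa and Fam162a supplied most of the score. Vegfa encodes the main growth factor for blood vessels. It had 508 CPM in members and 5.32 CPM in the lower 50% of pool 1, and 461 CPM in members and 5.56 CPM in the lower 50% of pool 2. Fam162a, a mitochondrial protein linked to cell death under low oxygen, had 401 CPM in members and 35.7 in the lower 50% of pool 1, and 423 in members and 40.7 in the lower 50% of pool 2. It had the highest level of the 5 in the lower 50%. Bnip3, which acts in mitophagy, had 140 CPM in members and 3.94 in the lower 50% of pool 1, and 258 in members and 5.73 in the lower 50% of pool 2. Slc2a1, the glucose transporter GLUT1, had 41.2 CPM in members and 1.68 in the lower 50% of pool 1, and 107 in members and 2.26 in the lower 50% of pool 2. These differences follow from the choice of cells.

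To see how much of them was the choice itself, the UMIs of each cell were split at random, cells were chosen on one part and the score was measured in the other. In the part not used for choosing, the 5 genes summed to 973 CPM in the top 5% so chosen and 127 in the lower 50% of pool 1. In pool 2 they summed to 1248 CPM in the top 5% so chosen and 121 in the lower 50%. Cells chosen this way shared 67.4% of the members in pool 1 and 74.2% in pool 2. Each gene was also measured in cells chosen by the other 4. Vegfa then had 159 CPM in the top 5% and 41.4 in the lower 50% of pool 1, a ratio of 3.83, and 356 in the top 5% and 22.6 in the lower 50% of pool 2, a ratio of 15.8. Bnip3 gave ratios of 11.2 and 14.6, Slc2a1 of 7.42 and 17.3, and Fam162a of 2.64 and 3.74. With Fam162a out of the score, ties widened the lower class to 1803 and 1601 cells. The ratio was larger in pool 2 for each of these 4 genes. Without Vegfa in the score, only 47.1% of the members of pool 1 and 71.2% of those of pool 2 stayed in the top 5%.

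Unlike the other 4 score genes, Ndrg1 lay mostly in members with markers of another cell type. Ndrg1, a stress-induced gene that is also known for high levels in myelinating glia, had 52 UMIs in members of pool 1 and 227 in members of pool 2, against 1 UMI in the lower 50% of each pool. Of those UMIs, 51 (98.1%) in pool 1 and 217 (95.6%) in pool 2 lay in barcodes rich in RNA of mature oligodendrocytes. A barcode was called oligodendrocyte-rich if it held at least 30 UMIs of Mog, Mag, Mobp, Mal, Cldn11 and Ermn, all genes of the myelin sheath or of oligodendrocytes, a threshold set after these values were seen. There were 4 such members in pool 1 (56 to 661 UMIs of the 6 genes) and 16 in pool 2 (35 to 694), 20 of the 270 in all. That is 2.90% and 12.1% of members, against 0.509% and 0.229% of the lower 50%. The remaining 250 members held 1 and 10 Ndrg1 UMIs, 0.76 and 5.0 CPM. When cells were chosen by the other 4 genes, Ndrg1 had 0 UMIs in the top 5% of pool 1, against 25 in its lower 50%. In pool 2 it had 56 UMIs (24.7 CPM) in the top 5% and 19 (1.05 CPM) in the lower 50%, a ratio of 23.7. Outside oligodendrocyte-rich barcodes, the members, middle and lower 50% of pool 2 held 10, 2 and 1 Ndrg1 UMIs. Most of the 56 therefore lay in oligodendrocyte-rich barcodes.

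**Figure D1:**
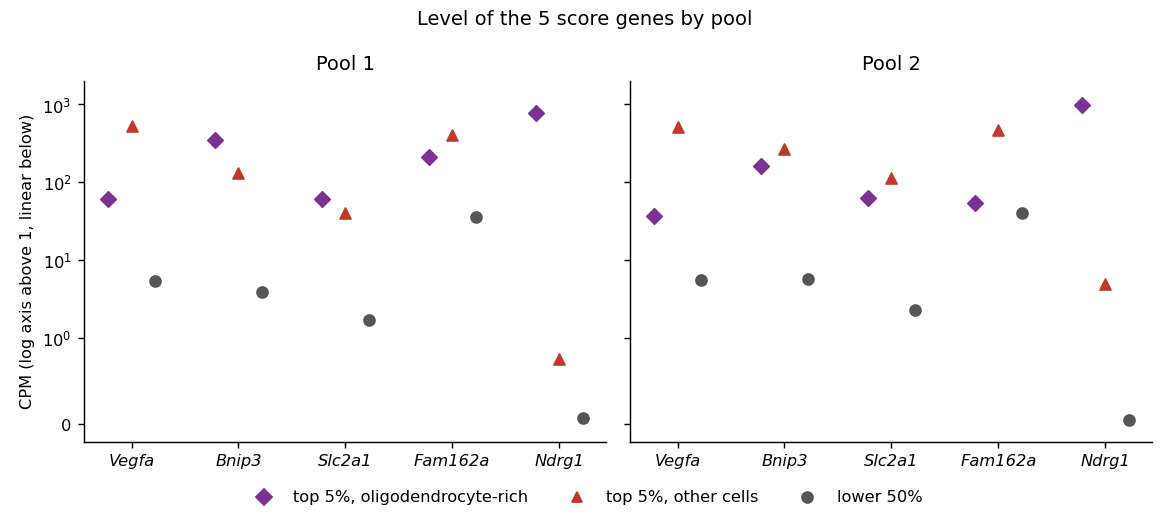
CPM of each score gene in each pool, on a log axis above 1 and a linear one below, for the oligodendrocyte-rich members (diamonds), the other members (triangles) and the lower 50% (circles). Ndrg1 stood at 768 and 988 CPM in the oligodendrocyte-rich members and at 0.76 and 5.0 CPM in the other members, while Vegfa showed the opposite order.

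Hypoxia genes in the 20 oligodendrocyte-rich members were mixed. Vegfa had 60.2 CPM in the 4 of pool 1 and 36.4 CPM in the 16 of pool 2, against 531 and 508 CPM in the remaining members, which the choice by a sum of genes can give by itself. Adm, a HIF target that was not in the score, had 1 and 2 UMIs in them (15.1 and 9.10 CPM), against 107 and 267 UMIs (81.3 and 134 CPM) in the remaining members. Pdk1, another HIF target, had 0 UMIs in them in both pools, against 51 and 102 UMIs in the remaining members. Bnip3, also a score gene, was present in them, at 346 and 164 CPM, against 130 and 269 CPM in the remaining members. Its presence can likewise follow from the choice. Their Pdgfra was at 331 and 109 CPM, against 1196 and 1078 CPM in the remaining members. Slc16a3, a lactate exporter outside the score, had 6 UMIs (90.4 CPM) in the 4 of pool 1 and 0 in the 16 of pool 2. The remaining members had 36 and 104 UMIs of it (27.4 and 52.0 CPM). The summed other HIF targets of the 20 had medians of 1932 and 2271 CPM, against 2046 and 3241 CPM in the remaining members and 1451 and 1536 CPM in the lower 50%. These 20 barcodes are called oligodendrocyte-rich below. Whether each is 1 cell or 2 in a droplet was not tested.

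Markers of oligodendrocyte precursors, the cells these gliomas resemble, were present in members at levels not called different for the main ones. Pdgfra, the receptor of PDGFB, had 1157 CPM in all members and 1409 CPM in the lower 50% of pool 1, and 983 in members and 1350 in the lower 50% of pool 2. It was not called different (log2 fold change -0.29 ± 0.11 (SE), edgeR quasi-likelihood test with Benjamini-Hochberg adjustment, adjusted p = 0.166). Olig2, the transcription factor that marks the oligodendrocyte lineage, had 547 and 408 CPM in members and 607 and 531 CPM in the lower 50%, and was not called either (adjusted p = 0.351). Of 12 precursor markers tested, 2 were called lower, Neu4 and Cspg5, against 3.25% of all genes tested, and 1, Neu4, once the oligodendrocyte-rich and microglia-rich barcodes were left out, against 2.88% of all genes. The microglial genes C1qa, C1qb, Csf1r, Cx3cr1, Tmem119, Ctss and Tyrobp were at 0 in members of pool 1, and Csf1r, Tmem119, Ctss, Tyrobp and Aif1 were at 0 in members of pool 2. No member was microglia-rich (at least 20 UMIs of 9 microglial genes), against 4 and 7 cells of the lower 50%. Red cell genes had 0 UMIs in members of either pool. Of 9 astrocyte markers tested, 2 were called higher, Gfap and Gja1, and 1 lower, S100b, against 4.36% and 3.25% of all genes. Gja1 rested on 3 barcodes, with 18 UMIs in 2 members of pool 1 and 14 UMIs in 1 member of pool 2.

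Across all genes outside the score, 14443 were tested. Counts were summed per pool and per class of cells (top, middle and lower) and fitted with pool as a block; a gene was called at an adjusted p under 0.05. In members, 630 genes (4.36%) were higher and 470 (3.25%) were lower than in the lower 50%, together 1100 (7.62%), and 1085 of the 1100 had the same sign in both pools. By 2-fold or more, 369 were higher and 273 lower. After the oligodendrocyte-rich and microglia-rich barcodes were left out, 14252 genes were tested, 466 (3.27%) were higher and 411 (2.88%) were lower, together 877 (6.15%). Of these, 367 higher and 383 lower genes were also called in all cells. Fold changes below are log2, members over lower 50%, with the standard error from the fit.

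The genes with the largest rises in all members were mostly those of the 20 oligodendrocyte-rich barcodes. The 12 that led by size, within the limits of at least 20 CPM and the same sign in both pools, were Aspa, Mal, Apod, Car14, Opalin, Ptgds, Mgp, Hapln2, Igfbp5, Mobp, Ermn and Ppp1r14a. Mal, a lipid raft protein of myelin, had 427 UMIs in members of pool 1 and 1317 in those of pool 2, against 5 and 17 in the lower 50%. Of those UMIs, 426 (99.8%) and 1313 (99.7%) lay in the oligodendrocyte-rich members. Mal, like Mobp and Ermn, is among the 6 genes that define these barcodes, so its place there follows from the definition. Opalin, a membrane protein of oligodendrocytes, had 51 and 73 UMIs in members, against 1 and 2 in the lower 50%, and all of the members' Opalin UMIs were in the oligodendrocyte-rich ones. Mgp had 163 of its 168 member UMIs of pool 2 there. The 10 markers of oligodendrocytes summed to 3336 and 11106 CPM in members, against 483 and 276 CPM in the lower 50%. All 10 oligodendrocyte markers of the list used to check cell types were called higher in all members, and 1 higher and 1 lower of 9 when the rich barcodes were left out. The 6 defining genes are among those 10, so this loss is partly given by the definition.

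Igfbp5 was the exception among the 12. This secreted binder of insulin-like growth factors had 31 and 90 UMIs in members and 2 and 4 in the lower 50%, and none of its member UMIs lay in the oligodendrocyte-rich barcodes. In pool 2, however, 6 members carried it and 3 of them held 83 of the 90 UMIs, while in pool 1, 11 members carried it.

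Cryab changed direction with these barcodes. It encodes alpha-B crystallin, a small heat shock protein that oligodendrocytes hold in quantity. Over all members it had 192 and 195 CPM, against 66.1 and 64.4 CPM in the lower 50%, and was called higher (log2 1.65 ± 0.10, edgeR adjusted p = 7.27e-06). The oligodendrocyte-rich members held 235 of its 265 UMIs in pool 1 and 359 of 432 in pool 2. Without those barcodes it had 22.8 and 36.5 CPM in members and 62.2 and 62.5 CPM in the lower 50%, and was called lower (log2 -0.94 ± 0.17, edgeR adjusted p = 0.00243).

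**Figure D2:**
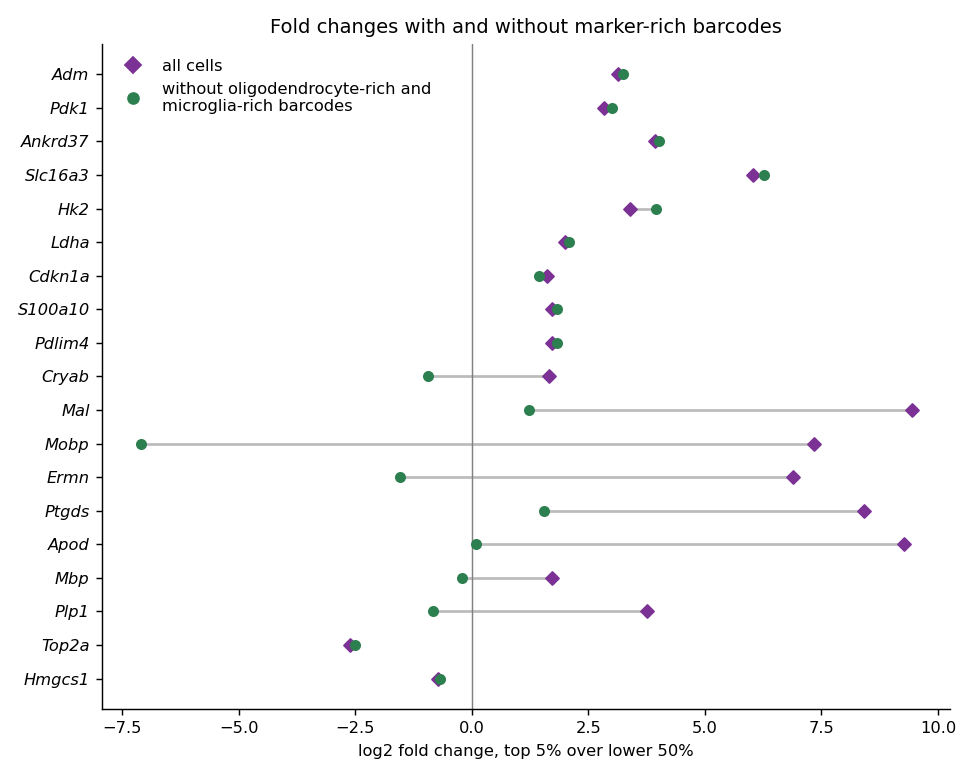
Log2 fold change of members over the lower 50% for 19 genes, in all cells (diamonds) and without the oligodendrocyte-rich and microglia-rich barcodes (circles). Adm was at 3.15 in all cells and 3.24 without those barcodes, Ldha at 2.0 and 2.09, and Cryab at 1.65 and -0.94. The myelin genes, of which Mal and Mobp define the oligodendrocyte-rich barcodes, lost their rises.

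HIF targets outside the score rose together in both pools. Of a list of 35, 33 were tested and 23 were called higher, against 4.36% of all genes tested. The list's median log2 fold change was 1.42, against -0.01 for all genes tested. Without the oligodendrocyte-rich and microglia-rich barcodes 27 of 33 were called higher, against 3.27% of all genes, and the list's median was 1.44. By pool that median was 0.83 in pool 1 and 1.75 in pool 2. The members and the list were chosen with earlier results of these data in view, and many of these genes are known to move with the score genes, so the count is a description and not independent evidence of low oxygen.

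The sequences before the starts of 6 score, HIF target and glycolysis genes are shown because HIF binds DNA at the letters ACGTG or GCGTG. Windows of 40 bases were read 5′ to 3′ from the RefSeq promoter table of GRCm38.p6, within the 250 bases before the start. Capitals mark ACGTG or GCGTG or their complements on the other strand, CACGT and CACGC, where they lie whole in the window, and neighbouring matches may overlap. Genes whose window overlapped an annotated exon are not shown.
Bnip3 (chr7:138909520-138909559, minus strand): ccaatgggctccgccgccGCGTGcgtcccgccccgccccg
Adm (chr7:110627585-110627624, plus strand): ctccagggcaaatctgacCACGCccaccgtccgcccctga
Pdk1 (chr2:71873128-71873167, plus strand): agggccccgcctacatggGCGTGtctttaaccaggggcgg
Egln3 (chr12:54204082-54204121, minus strand): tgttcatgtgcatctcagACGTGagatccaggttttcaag
Ldha (chr7:46845752-46845791, plus strand): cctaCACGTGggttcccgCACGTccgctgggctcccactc
Pgk1 (chrX:106186951-106186990, plus strand): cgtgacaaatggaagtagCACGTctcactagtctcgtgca
The match nearest to the start begins 35 bases before it in Bnip3, 54 in Adm, 78 in Pdk1, 229 in Egln3, 34 in Ldha and 131 in Pgk1. In the 250 bases, Bnip3 and Ldha held 5 matches each, Adm and Pgk1 2 each, and Pdk1 and Egln3 1 each. Such short letters are common: 38.6% of all 32851 promoters of the table and 56.9% of the 10743 promoters found for genes tested here held at least 1. The HIF target list held one in 20 of 28 promoters (71.4%) and the glycolysis list in 15 of 21 (71.4%). Vegfa and Aldoa had no match in this window. A match is a description of letters and not a measured binding site.

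Among secreted HIF targets, Adm led by test. It encodes adrenomedullin, a peptide that widens blood vessels. Adm had 78.3 CPM in members and 8.62 CPM in the lower 50% of pool 1, and 121 CPM in members and 15.3 CPM in the lower 50% of pool 2 (log2 3.15 ± 0.13, edgeR adjusted p = 6.3e-07). The rise was similar in both pools, 3.21 and 3.08 on the log2 scale. Adm UMIs were found in 52 members of pool 1 and 77 of pool 2, so its level did not rest on a few cells. Apln, a peptide hormone of vessel growth, rose as well (log2 3.36 ± 0.51, adjusted p = 0.00228 in edgeR), but on 4 and 34 UMIs in members.

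The prolyl hydroxylases Egln1 and Egln3 were called higher, as was Ankrd37. Egln2 had 47.8 and 49.6 CPM in members and 41.8 and 45.3 CPM in the lower 50%, and was not called (adjusted p = 0.308, edgeR). Egln3, a prolyl hydroxylase that HIF itself induces, had 9.42 CPM in members and 2.85 in the lower 50% of pool 1, and 25.3 in members and 3.58 in the lower 50% of pool 2 (log2 2.55 ± 0.35, edgeR adjusted p = 0.00125). Egln1, the main oxygen sensor in most tissues, rose less: 207 and 307 CPM in members, against 147 and 146 CPM in the lower 50% (log2 0.90 ± 0.14, edgeR adjusted p = 0.00309). Ankrd37, a small ankyrin protein used as a marker of HIF activity, had 26.1 and 64.9 CPM in members and 3.00 and 3.36 CPM in the lower 50% (log2 3.94 ± 0.31, edgeR adjusted p = 2.8e-05).

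Pdk1, Bnip3l and Higd1a, HIF targets that act on mitochondria, were each called higher. Pdk1 limits the use of pyruvate in mitochondria by inactivating pyruvate dehydrogenase. It had 37.0 CPM in members and 6.28 in the lower 50% of pool 1, and 46.0 in members and 6.22 in the lower 50% of pool 2 (log2 2.83 ± 0.20, edgeR adjusted p = 1.71e-05). Bnip3l, a mitophagy receptor, rose by 1.03 ± 0.17 and Higd1a, a small protein of the inner mitochondrial membrane, by 1.42 ± 0.19. The 13 mitochondrially encoded genes had 0 calls in edgeR (3 higher at an unadjusted p under 0.05, and 1 called higher by DESeq2). Of all genes tested in edgeR, 4.36% were called higher and 3.25% lower, so 0 of 13 is close to those shares. Of 89 nuclear genes of the respiratory chain, 1 was called higher and 1 lower, against 4.36% and 3.25% of all genes.

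Of the collagen-modifying enzymes in the list, P4ha1, P4ha2 and Plod2 were called higher, and Plod1 and Lox were not. P4ha1, a subunit of collagen prolyl hydroxylase, had 168 and 147 CPM in members, against 76.5 and 50.3 CPM in the lower 50% (log2 1.43 ± 0.12, edgeR adjusted p = 4.67e-05). Plod2, which hydroxylates collagen lysines, had 58.7 and 84.8 CPM in members, against 25 and 16.2 CPM in the lower 50% (log2 1.97 ± 0.22, edgeR adjusted p = 0.000346), whereas Plod1 had 48.6 and 44.2 CPM in members, against 43.6 and 34.0 CPM in the lower 50%, and was not called. P4ha2 was called on 5 and 7 UMIs in members, against 0 and 1 in the lower 50%. Mif, a cytokine, was the most abundant of the called HIF targets, at 703 and 1058 CPM in members, against 344 and 402 CPM in the lower 50%. Ero1l, an oxidase of protein folding, and Ddit4, a brake on mTORC1, rose by 2.03 ± 0.29 and 1.64 ± 0.25.

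Car9, carbonic anhydrase 9, a widely used hypoxia marker in human tumours, was scarce. It had 1 UMI in members of pool 1 and 6 in those of pool 2, against 2 and 2 UMIs in the lower 50%, and was not called (edgeR adjusted p = 0.0509), although it passed without the oligodendrocyte-rich and microglia-rich barcodes (edgeR adjusted p = 0.0372). Lox, Plod1, Wsb1, Gbe1, Tfrc and Ccng2 were called in neither fit. Igfbp3 was called only without those barcodes. Over all cells it had 159 CPM in members and 165 in the lower 50% of pool 1, and 471 in members and 263 in the lower 50% of pool 2.

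**Figure D3:**
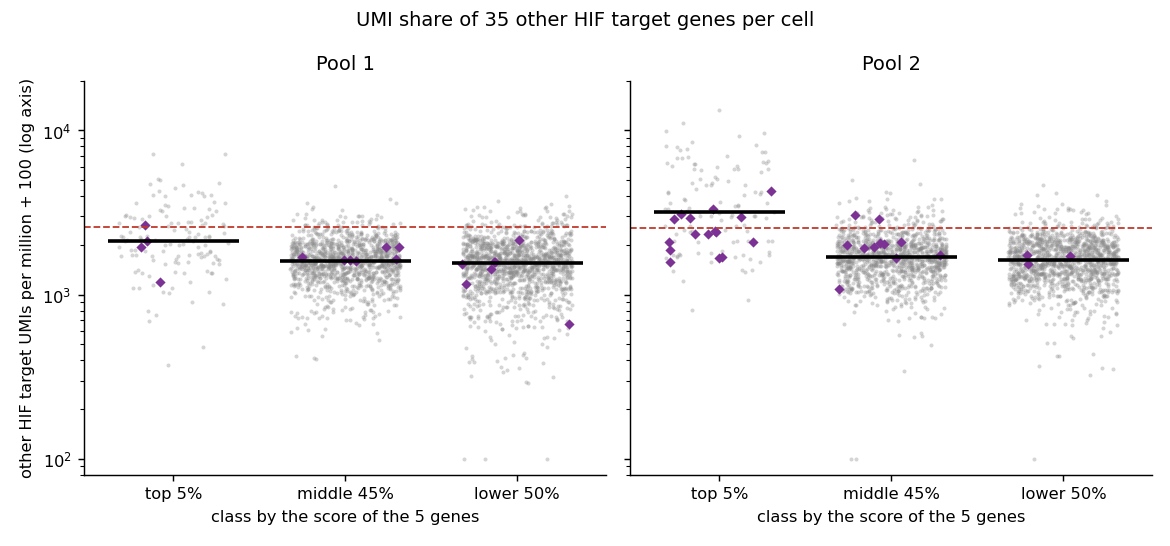
Summed CPM of the 35 other HIF targets in each cell (plus 100, log axis), 1 point per cell, by pool and class; bars are medians, diamonds are oligodendrocyte-rich barcodes and the dashed line is the 95th percentile of the lower 50%. In pool 1, 36.2% of members lay above the line and in pool 2, 63.6% did.

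Cell by cell, the other HIF targets did not separate members from the rest in full. Their summed level had a median of 2035 CPM in members of pool 1 and 1451 in its lower 50%, and of 3071 in members of pool 2 and 1536 in its lower 50%. The 95th percentile of the lower 50% was exceeded by 50 of 138 members of pool 1 (36.2%, exact 95% interval 28.2 to 44.8) and by 84 of 132 of pool 2 (63.6%, 54.8 to 71.8). Thinning every cell to 3000 UMIs gave 34.1% and 45.5% of members, above a line that 4.87% and 3.13% of the lower 50% exceeded. Before thinning, 5.02% and 5.03% of the lower 50% exceeded theirs, so the thinned line was stricter in pool 2. Without thinning, 1 of 4 and 6 of 16 oligodendrocyte-rich members exceeded the line, and of the remaining members 49 of 134 and 78 of 116 did. Most members of pool 1 thus lay below that line. In pool 1, 41 members had UMIs of 1 score gene alone, and in pool 2, 12 did. Intervals here cover counting error only.

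Glycolysis genes rose with the HIF targets. Of 22 enzymes and transporters, 16 were called higher, against 4.36% of all genes tested, and the median log2 fold change was 1.36. Leaving out the oligodendrocyte-rich and microglia-rich barcodes gave 16 of 22 as well, with a median of 1.34, with Hk1 gained and Eno2 lost. The largest was Slc16a3, the transporter MCT4 that exports lactate: it had 30.4 CPM in members and 1.02 in the lower 50% of pool 1, and 46.9 in members and 0.330 in the lower 50% of pool 2 (log2 6.02 ± 0.45, edgeR adjusted p = 2.14e-05). Its relative Slc16a1 had 21.0 and 29.3 CPM in members, against 22.7 and 16.7 CPM in the lower 50%, and was not called (adjusted p = 0.204, edgeR).

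Steps along the pathway differed by isoform. Hk2, the inducible hexokinase, had 13.8 and 41.0 CPM in members and 2.34 and 3.30 CPM in the lower 50% (log2 3.39 ± 0.39, edgeR adjusted p = 0.000374). Hk1, the constant form, had 54.4 and 100.1 CPM in members and 56.6 and 59.0 CPM in the lower 50%, and was not called over all cells (adjusted p = 0.0932, edgeR) but was called higher without the rich barcodes (adjusted p = 0.0459, edgeR). Gpi1 rose by 2.71 ± 0.26 and Tpi1 by 2.62 ± 0.15, both isomerases of the pathway. Pfkl, a liver-type phosphofructokinase, rose by 2.40 ± 0.16, Pfkp by 0.77 ± 0.12, and Pfkm had 49.3 and 61.3 CPM in members and 49.8 and 64.3 CPM in the lower 50%. Aldoa, an aldolase, had 691 and 1024 CPM in members and 219 and 269 CPM in the lower 50% (log2 1.88 ± 0.13), and Aldoc had 169 and 241 CPM in members and 134 and 282 CPM in the lower 50%. Ldha, which makes lactate from pyruvate, had 686 and 869 CPM in members and 207 and 206 CPM in the lower 50% (log2 2.0 ± 0.13, edgeR adjusted p = 1.03e-05), and Ldhb had 310 and 293 CPM in members and 324 and 345 CPM in the lower 50%. Differences between isoforms were not themselves tested.

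Of 9 regulators of the response, 0 were called higher by edgeR (1 at an unadjusted p under 0.05) and 0 by DESeq2. Of all genes tested in edgeR, 4.36% were called higher, so 0 of 9 is close to that share. Hif1a had 144 CPM in members and 119 in the lower 50% of pool 1, and 112 in members and 116 in the lower 50% of pool 2 (log2 0.19 ± 0.11, edgeR adjusted p = 0.376). Epas1, the other alpha subunit, was called lower, with 107 and 104 CPM in members and 137 and 173 CPM in the lower 50% (log2 -0.48 ± 0.12, edgeR adjusted p = 0.0368). DESeq2 called 0 regulators lower, so that call was lost there. It was also lost in edgeR in several other settings, among them thinned cells, cells matched by depth and interferon-high cells left out. Arnt and Vhl were not called (adjusted p = 0.686 and 0.292, edgeR). Of the VEGF family outside Vegfa, only the receptor gene Flt1 was called among 7 tested, against 4.36% of all genes called higher. Its 34 member UMIs lay in 1 cell of pool 1 (2 UMIs) and 10 cells of pool 2 (32 UMIs).

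Genes of cell division were lower in members. Of 32 genes of G2 and mitosis, 31 were called lower, against 3.25% of all genes tested, with a median log2 fold change of -2.56. Of 27 S phase genes, 22 were called lower, with a median of -1.16. Middle cells were also below the lower 50% in G2 and mitosis genes. These summed to 531, 2414 and 3584 CPM in members, middle cells and lower 50% of pool 1. In pool 2 they summed to 616, 1387 and 2650 CPM. Mki67, the proliferation marker, had 44.9 CPM in members and 335 in the lower 50% of pool 1, and 32 in members and 232 in the lower 50% of pool 2 (log2 -2.80 ± 0.15, edgeR adjusted p = 2.07e-06). Top2a, the topoisomerase that untangles chromosomes, had 45.7 and 55.9 CPM in members and 403 and 291 CPM in the lower 50% (log2 -2.61 ± 0.20, edgeR adjusted p = 2.8e-05). Ccnd1, cyclin D1, was not among the genes called: it had 2396 and 2065 CPM in members and 2464 and 2473 CPM in the lower 50% (adjusted p = 0.79, edgeR).

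Fewer members than lower-half cells were in cycle. After thinning to 3000 UMIs, 18 of 138 members of pool 1 (13%, exact 95% interval 7.92 to 19.8) and 8 of 132 of pool 2 (6.06%, 2.65 to 11.6) had at least 2 UMIs of 10 core cycling genes, against 24.3% and 17.4% of the lower 50%. Without thinning the shares were 26.1% and 20.5% in members and 35.9% and 30.9% in the lower 50%. Cells that should not cycle, those with at least 3 UMIs of Mog, Mag, Mobp and Ermn, gave 11.4% (4 of 35) and 9.76% (4 of 41) by the same thinned measure, at median depths of 18365 and 16677 UMIs before thinning. Exact 95% intervals of that background were 3.20 to 26.7 and 2.72 to 23.1, so it is too imprecise to set beside either class. With cycling cells left out of every class, the calls of G2 and mitosis genes fell to 0 of 32 lower in edgeR (2 lower at an unadjusted p under 0.05), and S phase calls to 5 of 27. The core genes that picked those cells belong to the G2, mitosis and S phase lists, so this fall is partly given by the choice. Of 31 HIF targets tested with cycling cells left out, 22 were called higher. In that fit 518 of all 13765 genes tested were called higher and 146 lower.

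Cholesterol synthesis genes were lower, by less. Of 23, 12 were called lower, against 3.25% of all genes tested, and the median was -0.50 (-0.41 in pool 1 and -0.53 in pool 2). Hmgcs1, an early enzyme of the pathway, had 171 and 157 CPM in members and 268 and 305 CPM in the lower 50% (log2 -0.73 ± 0.11, edgeR adjusted p = 0.00247). Fdps, a later enzyme, fell by 0.71 ± 0.11 on the log2 scale. With cycling cells left out 10 of 23 were called lower, against 146 of all 13765 genes tested. DESeq2 called 5 of 23 lower on all cells, against 311 of all 14239.

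Most genes of a mesenchymal and S100 list were higher in members. Of 16 tested, 11 were called higher, Cryab among them, against 4.36% of all genes, with a median of 1.58 (1.24 in pool 1 and 1.60 in pool 2), and without the rich barcodes 11 were higher and 1, Cryab, lower. S100a10, a calcium-binding partner of annexin A2, had 74.7 CPM in members and 36.8 in the lower 50% of pool 1, and 279 in members and 75.4 in the lower 50% of pool 2 (log2 1.71 ± 0.23, edgeR adjusted p = 0.00118). Anxa2 itself had 5.80 and 35.2 CPM in members, against 1.17 and 2.31 CPM in the lower 50% (log2 3.63 ± 0.45, edgeR adjusted p = 0.00065). Pdlim4, a regulator of actin, had 50.7 and 88.4 CPM in members and 18.5 and 26.5 CPM in the lower 50% (log2 1.73 ± 0.15, edgeR adjusted p = 5.68e-05). Cd44 and the matrix genes Tnc and Fn1 rose by 2.87 ± 0.48, 1.64 ± 0.25 and 1.69 ± 0.25. S100a6 had 62.3 and 45.5 CPM in members and 75.1 and 52.3 CPM in the lower 50%, and was not called. Summed over the list, members, middle cells and lower 50% had 1430, 1335 and 986 CPM in pool 1. In pool 2 they had 1757, 1297 and 1235 CPM.

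Some p53 targets and some immediate early genes were higher. Of 18 p53 targets tested, 8 were called higher, against 4.36% of all genes, with a median of 0.65, and 11 without the rich barcodes. With cells thinned to 3000 UMIs 1 was called higher, against 242 of all 12295 genes tested. With pool left out of the model 0 were, against 116 of all 14443. Cdkn1a, the cell cycle inhibitor p21, had 241 CPM in members and 124 in the lower 50% of pool 1, and 593 in members and 157 in the lower 50% of pool 2 (log2 1.61 ± 0.22, edgeR adjusted p = 0.00135). In pool 2, 344 of its 1315 member UMIs (26.2%) were in oligodendrocyte-rich barcodes, and its fold change without them was 1.45 ± 0.16. Ccng1 and Phlda3 rose by 0.73 ± 0.15 and 0.62 ± 0.10, and Mdm2 had 50 and 46.4 CPM in members and 49.3 and 41.8 CPM in the lower 50%. Of 21 immediate early genes, 7 were called higher, against 4.36% of all genes, with Junb at 79.7 and 101 CPM in members and 47.3 and 50.4 CPM in the lower 50%.

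Interferon genes were high in members of pool 2. The edgeR test, which takes both pools, called 9 of 20 higher, against 4.36% of all genes. DESeq2 called 3, against 490 of all 14239 genes tested. The median log2 fold change of the 20 was -0.29 in pool 1 and 3.78 in pool 2. Isg15, a ubiquitin-like protein induced by interferon, had 5.07 CPM in members and 7.38 in the lower 50% of pool 1, and 77.1 in members and 2.86 in the lower 50% of pool 2 (edgeR adjusted p = 0.0225). Rsad2, viperin, had 0 UMIs in members and 41 in the lower 50% of pool 1, and 188 in members and 41 in the lower 50% of pool 2. In pool 2, Isg15 UMIs lay in 21 members, and 3 of them held 90 of the 171 UMIs. The cells of highest interferon share were then left out of all classes. In that fit 2 of 18 interferon genes and 20 of 31 HIF targets were called higher, against 528 of all 14312 genes tested. The interferon share was taken over the same interferon list, so the interferon count follows in part from the cells left out. The difference between pools was not tested, since each pool is 1 library.

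**Figure D4:**
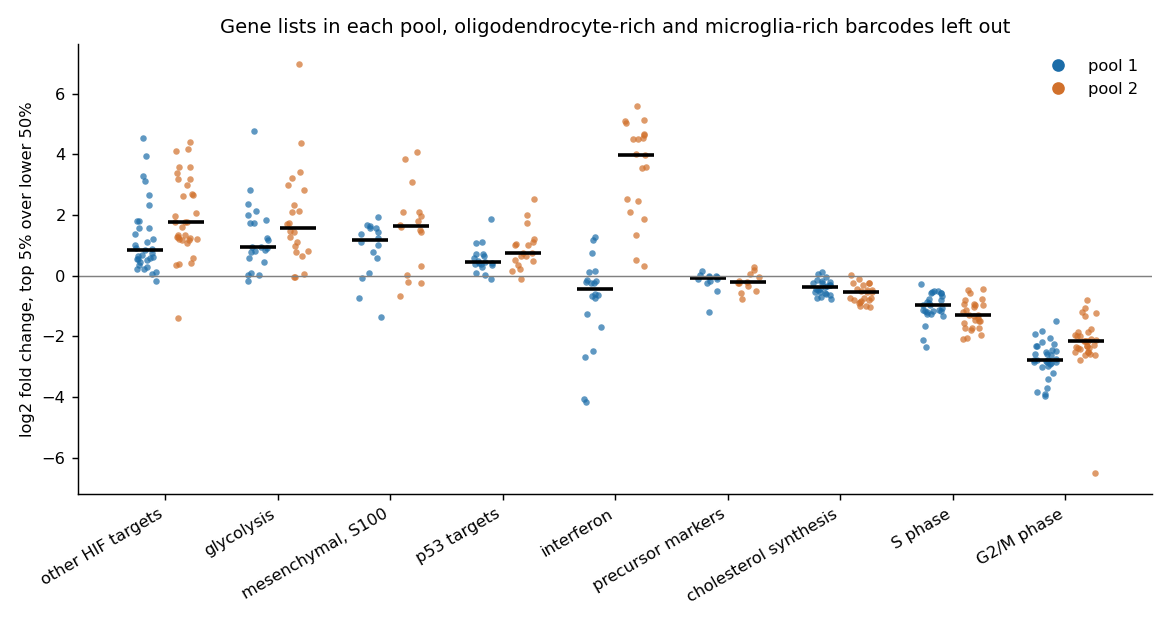
Log2 fold change of members over the lower 50% for each tested gene of 9 lists, by pool, without oligodendrocyte-rich and microglia-rich barcodes; bars are list medians. The medians of HIF targets and glycolysis lie above 0 in both pools, that of G2/M genes below, and the interferon list has medians of -0.43 in pool 1 and 3.98 in pool 2.

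With the rich barcodes left out, 12 genes led the rises by size among those of at least 20 CPM with the same sign in both pools: Igfbp5, Slc16a3, Itih5, Tesc, Ankrd37, Ifit3b, Hk2, Anxa2, A2m, Adm, Usp18 and Vgf. Several of these belong to no list used here. Over all cells, the interferon genes Ifit3b and Usp18 rose mainly in pool 2. Their log2 fold changes were 0.69 and 0.10 in pool 1 and 4.96 and 4.26 in pool 2. A2m, a protease inhibitor, had 60.9 CPM in members and 6.46 in the lower 50% of pool 1, and 89.1 in members and 6.73 in the lower 50% of pool 2 (log2 3.61 ± 0.18, edgeR adjusted p = 3.27e-08), and was carried by 37 and 49 members. Vgf, a secreted neuropeptide precursor, had 74.6 and 289 CPM in members and 15.4 and 30.8 CPM in the lower 50% (log2 3.03 ± 0.21, edgeR adjusted p = 5.78e-07). Tesc, tescalcin, a calcium-binding protein, had 20.6 and 119 CPM in members and 2.08 and 4.39 CPM in the lower 50% (log2 4.47 ± 0.29, edgeR adjusted p = 3.12e-07). Itih5, a matrix-binding protein, had 11.4 and 56.0 CPM in members and 0.519 and 0.834 CPM in the lower 50%. In pool 1, 3 of the members held 21 of the 23 Itih5 UMIs counted over all members. The 12 largest falls within the same limits were of division genes, among them Kif4, Hist1h3c, Esco2, Bub1 and Nusap1.

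Levels were also followed along the rank of the score. With the rich barcodes left out and the remaining cells ranked again, the summed other HIF targets stood at 1488, 1530, 1583 and 1623 CPM in pool 1 in cells ranked 0 to 50, 50 to 75, 75 to 90 and 90 to 95 percent, and at 1568, 1635, 1689 and 1828 CPM in pool 2. The top 5% of this ranking, which includes some cells that were not members, was split into a lower, an upper and a highest range, of 68, 41 and 27 cells in pool 1 and 64, 39 and 26 in pool 2, the last being the highest 1%. In these the HIF targets were at 1918, 2296 and 4130 CPM in pool 1 and at 2679, 4186 and 7217 CPM in pool 2. Glycolysis was at 3014, 3610, 3695 and 4176 CPM in pool 1 over the same 4 lower ranges and at 3206, 3568, 3583 and 4079 CPM in pool 2, so it was already higher above rank 50. In the 3 upper ranges it was at 4731, 6487 and 10935 CPM in pool 1 and at 6181, 10611 and 14173 CPM in pool 2. Adm stood at 157 and 163 CPM in the highest 1%. G2 and mitosis genes did not follow this course. In pool 1 they were lower in each successive rank range, at 3633 CPM in ranks 0 to 50 and 190 CPM in the highest 1%. In pool 2 they were at 2645, 1680, 1318 and 465 CPM over the 4 lower ranges, so they were already lower below the top 5%. In the 3 upper ranges of pool 2 they were at 601, 163 and 972 CPM. The median depth of the highest 1% was 11962 and 19649 UMIs, against 8396.5 and 12162 in the lower 50%, and the part of depth in these levels was not tested.

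**Figure D5:**
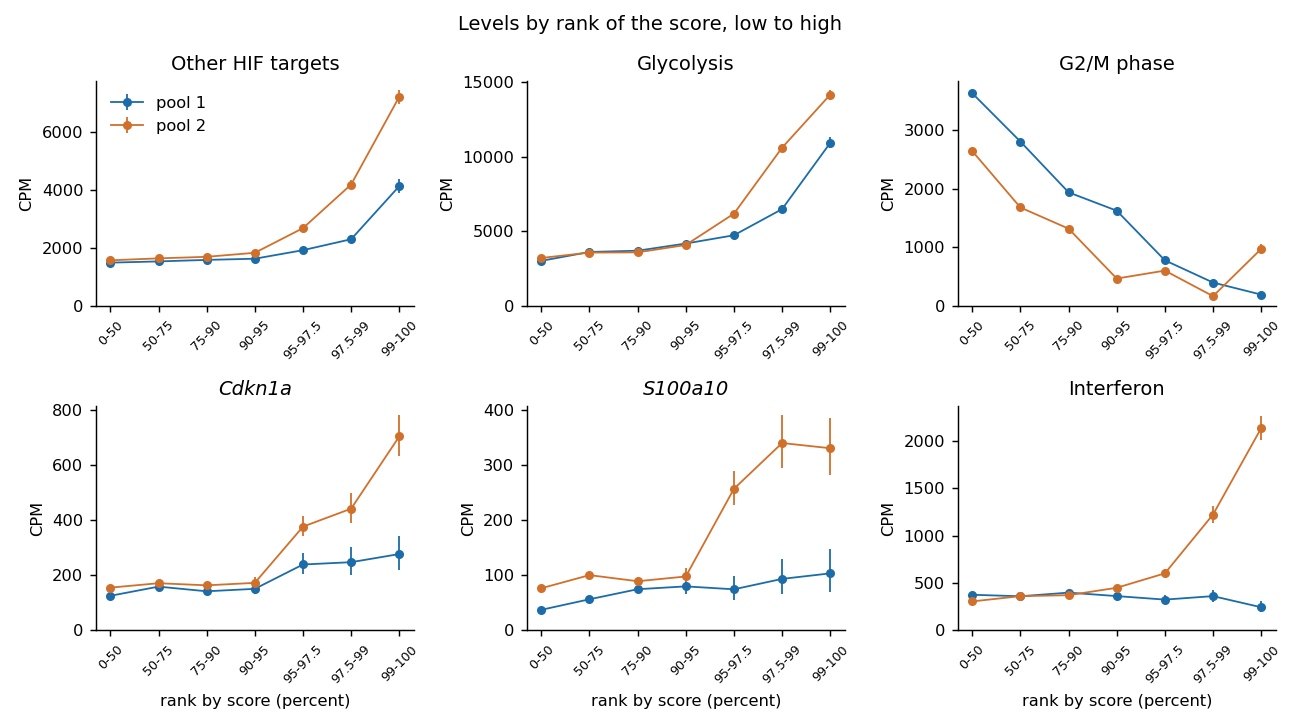
CPM of 4 gene lists and of Cdkn1a and S100a10 by rank of the score, low to high, in both pools without the rich barcodes; bars are exact Poisson 95% intervals. Other HIF targets and glycolysis are highest in the highest 1% of both pools, while G2/M genes are lower in each successive range in pool 1.

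Members overlapped in part with other highly expressing cells. Of the members, 9.42% in pool 1 (exact 95% interval 5.11 to 15.6) and 19.7% in pool 2 (13.3 to 27.5) were also in the top 5% of their pool by S100a10 and Lgals1. That held for 7.12% and 5.18% of the middle cells and 2.69% and 3.43% of the lower 50%. In pool 1 the share of the middle cells thus lay inside the interval of the members. For Cdkn1a the overlap was 12.3% (7.34 to 19.0) and 28.0% (20.6 to 36.5), against 5.50% and 3.99% of the middle cells and 3.85% and 3.66% of the lower 50%. For the interferon list it was 4.35% (1.61 to 9.22) and 24.2% (17.2 to 32.5), against 4.77% and 4.67% of the middle cells and 5.31% and 3.43% of the lower 50%. The sets are of the same size as the members, so each share of members holds for both. Most members of each pool lay outside each of the 3 sets.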

How the data were processed

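Single-cell RNA-seq libraries (10x 3′ v3.1) of 2 pools were read from the deposited matrices of raw UMI counts per gene and barcode, which the authors made with Cell Ranger 6.0.2 on GRCm38 (mm10), per the submitters' processing notes. Barcodes were filtered and ranked as the report describes. Members and gene lists were chosen with earlier results of these data known. Scrublet, in scanpy 1.11.5, scored doublets. UMI counts were summed per pool and class and tested with edgeR 4.0.16 (quasi-likelihood, TMM, pool as block, Benjamini-Hochberg adjustment over all genes tested) in R 4.3.3, with DESeq2 1.42.0 as an alternative. The block is the pool, since both classes come from the same library. On simulated counts of 14206 genes the fit recovered 23.9% of 1.5-fold, 62.7% of 2-fold and 78.8% of 4-fold changes. CPM are over all UMIs of a class. Genes were named by a rule: the 12 largest called changes each way of at least 20 CPM with the same sign in both pools, up to 4 called members per list by p, and set genes of the pathway; further list members were named after their values were seen. Settings changed were normalization, filter, depth, class size, score genes, doublets and cell types left out.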

Additional observations from a re-analysis of the deposited data

How the results depend on the processing

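The counts of HIF targets and glycolysis genes called higher stayed within 1.5 times of 23 and 16 under the alternatives run, except that the fit with no replicate block (pool left out of the model, against the pairing of classes within a pool) gave 10 HIF targets. Under that unpaired fit 116 genes were higher and 87 lower (main 630 and 470), with 7 S phase genes lower (main 22) and 1 mesenchymal, 0 p53 and 0 interferon genes higher (main 11, 8 and 9). Other settings gave these counts of genes higher and lower: 242 and 99 with cells thinned, 395 and 313 with lower cells matched by depth, 412 and 190 when cells were chosen on one part of the UMIs and tested in the other, 340 and 300 with any cell bearing markers of other types left out, 356 and 116 without cycling cells and rich barcodes. Genes lower were 311 by DESeq2, 309 in a fit of 4 libraries (middle class left out), 313 with the score on thinned cells and 146 without cycling cells. With the score on thinned cells, ties widened the top class to 274 and 267 cells and the lower class to 1787 and 1700. S phase genes lower were 5 (thinned cells), 13 (thinned score), 9 (split UMIs), 5 (no cycling cells), 12 (other types out), 5 (no cycling cells or rich barcodes) and 11 (score without Vegfa), and G2/M genes lower were 0 without cycling cells, with or without rich barcodes. Mesenchymal genes higher were 6 with thinned cells and 7 with Fam162a out of the score. p53 targets higher were 5 by DESeq2, 1 with thinned cells, 5 with the thinned score, 4 matched by depth, 3 with split UMIs, 5 in the top 10%, 5 without Slc2a1 and 3 without Fam162a in the score. Interferon genes higher were 3 by DESeq2, 14 with no filter, 2 in 4 libraries, 14 with split UMIs, 15 in the top 2%, 2 without interferon-high cells, 14 without rich barcodes, 15 with those removed before choosing, 14 without cycling cells too, 15 with Ndrg1 also out of the score and 17 with Vegfa out. Some log2 fold changes reversed. With rich barcodes out, then with choice repeated, then with cycling cells out too, then with Ndrg1 out too, Cryab was at -0.94, -0.98, -1.09 and -0.98, Ermn at -1.54, -1.64, -1.39 and -1.71 and Mobp at -7.10, -7.09, -6.46 and -7.09. Cryab was at -1.06 and Apod at -6.25 with other types out, Apod at -0.047 without cycling cells and rich barcodes, and Cryab at -0.73 and Opalin at -2.31 with only Ndrg1 out. C1qa was at 1.06 and C1qb at 1.04 matched by depth, and C1qa at 0.78, 0.68 and 0.66 with rich barcodes out, with choice repeated and with Ndrg1 out too. Without cycling cells, then also without rich barcodes, Cenpf was at 0.018 and 0.062, Mki67 at 0.28 and 0.36 and Nusap1 at 0.0046 and 0.11, with Hist1h3c at 0.10 in the second. Gja1 was at -5.54 with split UMIs, -3.96 at a mitochondrial limit of 5% and -4.01 in members with 5 or more score UMIs. In the top 10% Neu4 was at 0.0036 and S100b at 0.23, and S100b at 0.032 with Vegfa out. With either pool left out, as values with no test, Ifit3 ranged over -1.06 and 4.24, Irf7 over -0.16 and 4.50 and Isg15 over -0.47 and 4.77, the negative value being without pool 2. Ermn, Mobp, C1qa, Cenpf, Mki67 and Nusap1 are among the genes that picked the cells left out. The causes of these changes were not tested. The alternatives with interferon-high cells, members of 5 or more score UMIs, or rich barcodes left out were chosen after seeing the data. Alternatives splitting cells by sex-linked genes were not run, since each pool carried those of 1 sex. With 2 pools, 2 residual degrees of freedom and medians of 7 and 15 score UMIs per member, single cells near the threshold are poorly placed, and genes with few UMIs can rest on few cells.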
